A study of Homo sapiens with 8 samples.

Results

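ATF4, CHOP (gene symbol DDIT3) and 8 further basic leucine zipper (bZIP) transcription factors were followed in a human breast epithelial line under an Hsp70 inhibitor. The 10 genes, ATF4, DDIT3, ATF3, ATF5, CEBPB, CEBPG, CEBPD, JDP2, ATF2 and ATF6, were taken by symbol from a table of 60617 genes, and all 10 were among the 17693 genes with enough counts to be tested. RNA was sequenced from MCF-10A, an established non-tumorigenic breast epithelial cell line, in 8 libraries. The cells were of 2 kinds, labelled Empty and NeuT, and each kind was either left untreated or given JG-98, a small molecule that inhibits Hsp70 chaperones, at 1 µM for 12 h. This gave 4 groups of 2 libraries (untreated Empty, treated Empty, untreated NeuT and treated NeuT). All groups shared the MCF-10A background and a medium with horse serum, epidermal growth factor, hydrocortisone, insulin and cholera toxin. What distinguishes NeuT from Empty is not written out in the labels, nor is whether either kind is 1 clone or a pool. The untreated cells are described as untreated, with no mention of solvent. Nothing in the labels says that replicates were separate cultures, so p-values measure the spread between these libraries, which may be technical.

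ATF4 is the main transcription factor of the integrated stress response. Kinases that sense stress phosphorylate the translation factor eIF2α, general protein synthesis slows, and ATF4 mRNA, whose upstream reading frames normally hold back its translation, is translated more. ATF4 pairs with other bZIP proteins, among them C/EBPβ and C/EBPγ, and switches on genes for amino acid uptake and synthesis, tRNA charging and redox balance. CHOP and ATF3 are induced downstream of it and act further along the response. ATF4 and ATF5 are controlled largely at translation and ATF6 by cleavage of its membrane-bound protein, so the mRNA levels given here are not measures of these proteins' activity. The title of the series places the work on the arm of this response run by the kinase HRI, under damage to cytoplasmic proteins.

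Total counts lay between 55050996 and 56861971 in 7 libraries and at 37341458 in treated Empty replicate 1. The treated NeuT libraries stood further apart than any other pair of replicates, with a median absolute log2 difference over all tested genes of 0.156 against 0.0944 to 0.130 in the other groups, and a chi-square statistic per gene of 22.0 against 4.52 to 8.20. None of the 10 breast epithelial markers checked was at 0 in all libraries, and their summed level was 21399 to 27834 CPM (each count as a share of its library, with sizes adjusted by edgeR's TMM factors). Summed levels were at most 12.4 CPM for 6 immune markers and 17.5 CPM for 5 endothelial markers. For 6 fibroblast markers they were 8.52 to 9.76 CPM in Empty and 68.4 to 83.0 CPM in NeuT. The NeuT sum was mostly DCN, while COL1A1 was at 4.70 to 5.83 CPM over all libraries. The part of these markers in any result below was not tested. In bulk RNA, fewer cells with a transcript and less of it per cell cannot be told apart.

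Short stretches of promoter sequence are shown first, since several of these genes are known targets of the family's own dimers. RefSeq (GRCh38.p14) promoter windows were matched for 8 of the 10 genes, not for ATF2 and CEBPD, and the 250 bases before each start were searched on both strands for 4 motifs picked after the expression values were known. The composite site bound by C/EBP-ATF pairs such as ATF4 with C/EBPγ, searched as TGATGNAA, was present in 3 of the 8 genes, in 1061 of 27305 genes in the table (3.89%) and in 6 of 29 listed ATF4 targets (20.7%). These 3 genes are shown because each was called with JG-98 in at least 1 comparison below. The other members called with JG-98, ATF4, DDIT3 and ATF5, had no such match in their windows. Capitals mark the match, all 3 genes lie on the plus strand, and the stretches lie at chr1:212565205-212565234 (191 bases before an ATF3 start), chr14:75427995-75428024 (16 bases before a JDP2 start) and chr19:33374060-33374089 (42 bases before a CEBPG start).
ATF3: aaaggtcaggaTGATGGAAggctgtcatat
JDP2: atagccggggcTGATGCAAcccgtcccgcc
CEBPG: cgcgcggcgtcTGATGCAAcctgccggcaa
The AP-1 site, searched as TGACTCA, was present in 2 of the 8 genes, in 5.19% of all genes and in 1 of the 29 ATF4 targets (3.45%). The matches lay at chr12:57520738-57520766 (minus strand, upstream of a RefSeq DDIT3 start, with its last bases in an exon of MBD6, which lies on the opposite strand) and chr19:49928707-49928735 (plus strand, 188 bases before a RefSeq ATF5 start).
DDIT3: gcgcgcgcgcaTGACTCAcccacctcctc
ATF5: ggagagtgctgTGACTCAtgctggactct
The full cAMP response element TGACGTCA was in the windows of 0 of the 8 genes, in 2.03% of all genes and in 0 of the 29 ATF4 targets. The CCAAT box was in 4 of the 8 (ATF3, DDIT3, CEBPG and CEBPB), in 37.0% of all genes and in 17 of the 29 ATF4 targets (58.6%). No match of one motif overlapped a match of another. The 192 bases before a DDIT3 start, chr12:57520518-57520709 on the minus strand, end upstream where that MBD6 exon begins and hold a CCAAT box on each strand, here in capitals, and 68.2% G and C. They are shown because DDIT3 had the largest change with JG-98 among the 10 genes in both lines.
DDIT3: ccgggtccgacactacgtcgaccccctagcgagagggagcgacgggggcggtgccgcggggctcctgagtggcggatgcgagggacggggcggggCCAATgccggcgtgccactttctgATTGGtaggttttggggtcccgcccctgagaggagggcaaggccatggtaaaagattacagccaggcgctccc
Starts here are those of RefSeq, which can give a gene several. The stretches of JDP2, CEBPG, DDIT3 and ATF5 lie inside the longer gene models of the count table given below, and that of ATF3 lies before its gene model. A match of letters is a description, not a site shown to be bound, and the absence of one says only that these letters are not in the window.

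Per length, ATF4 and CEBPB were above the other 8 genes in every group. In RPKM (CPM divided by exonic length in kilobases), ATF4 was at 96.5 ± 3.3 (SD, n = 2) and CEBPB at 85.0 ± 4.9 (SD, n = 2) in untreated Empty, and together they made up 38.5% and 34.0% of the summed RPKM of the 10 genes. ATF5 (21.1), CEBPD (18.8), CEBPG (11.8), ATF6 (9.30) and ATF2 (3.63) followed in mean RPKM. ATF3 (1.55 and 1.45 in the 2 libraries), JDP2 (mean 1.42) and DDIT3 (mean 1.37) came last, and the libraries of ATF3 and JDP2 overlapped, so their order is within the spread. In untreated NeuT the top of the order was different, with CEBPB at 103.7 ± 6.4 RPKM (SD, n = 2) above ATF4 at 43.9 ± 0.33 RPKM (SD, n = 2). JDP2 was lowest there at 1.35 RPKM, below DDIT3 at 1.72 and ATF3 at 2.05. With JG-98, DDIT3 moved from the 10th to the 8th place in Empty (3.46 ± 0.11 RPKM, SD, n = 2) and from the 9th to the 7th in NeuT (10.4 ± 2.4 RPKM, SD, n = 2), where its libraries overlapped those of ATF6 (11.8 ± 0.43, SD, n = 2). In treated NeuT the libraries of CEBPB (116.6 ± 6.9, SD, n = 2) and ATF4 (111.2 ± 17, SD, n = 2) overlapped too, as did those of ATF2 with ATF3 and of ATF3 with JDP2. The lengths used include exonic bases shared with other genes, 39.6% for DDIT3, 22.1% for ATF5 and 11.8% for CEBPB. Shared bases can add or remove counts, and their part in these places was not tested.

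**Figure D1:**
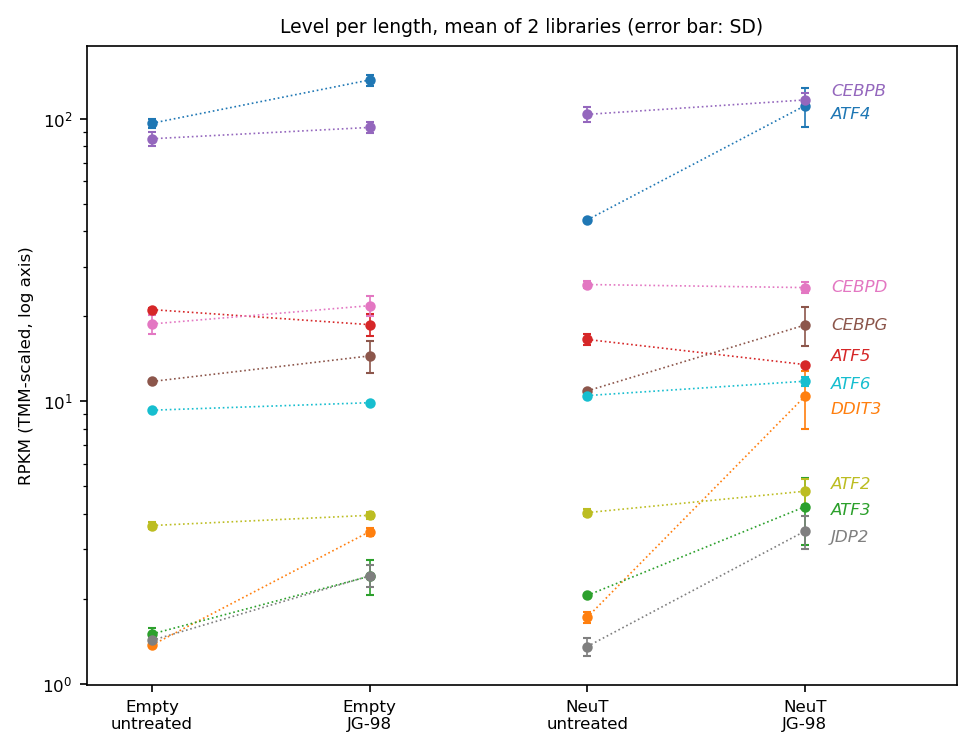
Level per length of the 10 bZIP genes in the 4 groups, as TMM-scaled RPKM on a log axis. Points are means of 2 libraries, error bars are the SD, and dotted lines join the untreated and treated groups of 1 line. ATF4 and CEBPB lie above 40 RPKM in all 4 groups, and DDIT3 goes from 1.37 to 3.46 in Empty and from 1.72 to 10.4 in NeuT.

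The question put to each gene was whether JG-98 changed its mRNA in Empty cells, in NeuT cells, and by a different amount in the lines. In Empty cells 3 of the 10 genes, ATF4, DDIT3 and JDP2, rose at an edgeR adjusted p-value under 0.05 (called), and none fell. In the same comparison 0.339% of the 17693 tested genes were called, 0.26% as higher and 0.0791% as lower. In NeuT cells 5 of the 10, ATF4, DDIT3, ATF3, CEBPG and JDP2, rose and 1, ATF5, fell, against 3.01% of all genes called, 2.01% as higher and 1.01% as lower. CEBPB, CEBPD, ATF2 and ATF6 were called in neither line. Averaged over both lines, the same 6 genes as in NeuT were called in the same directions, against 3.97% of all genes, 2.39% as higher and 1.58% as lower. The averaged call of ATF5 was lost without either untreated Empty library, treated Empty replicate 2 or untreated NeuT replicate 1, with edgeR adjusted p-values of 0.0547 to 0.0945. The count in Empty depended on which libraries were in the fit. It was 1 without either untreated Empty library and 0 without treated Empty replicate 1, and it was 5, with ATF3 and CEBPG added, without either treated NeuT library.

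**Figure D2:**
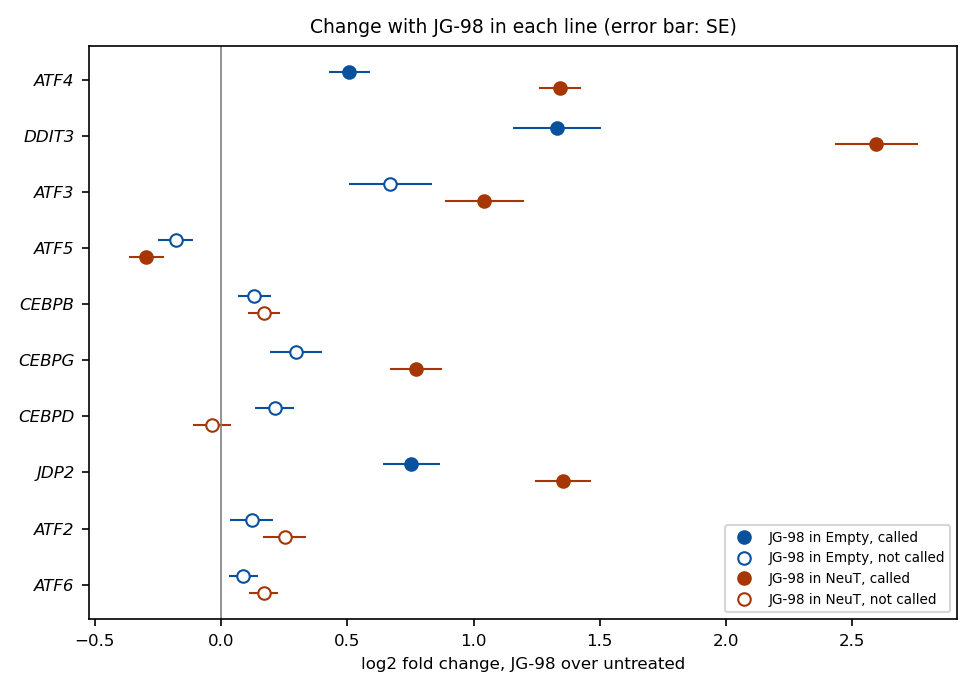
Change with JG-98 of the 10 genes in Empty and NeuT cells, as log2 fold change from edgeR with its standard error. Filled points are called at an adjusted p-value under 0.05, and the largest changes are those of DDIT3, 1.33 in Empty and 2.60 in NeuT.

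ATF4 (ENSG00000128272, GRCh38 chromosome 22, 39519695 to 39522685, plus strand) is taken first. Its level was 248.5 and 236.6 CPM in the untreated Empty libraries and 356.0 and 334.1 CPM in the treated ones. In NeuT it was 109.7 and 110.8 CPM without the drug and 248.6 and 310.5 CPM with it. Treated libraries were above untreated ones in both lines without overlap. Such separation of 2 against 2 libraries, in one direction or the other, held for all 10 genes in Empty and for 9 of 10 in NeuT, against 43.1% and 44.8% of all genes. The treated NeuT libraries were at or above the level of the untreated Empty libraries, and the untreated NeuT libraries were the lowest of all 8. The change was 1.42-fold in Empty (log2 0.51, SE 0.082, edgeR adjusted p-value 0.0157) and 2.53-fold in NeuT (log2 1.34, SE 0.084, edgeR adjusted p-value 1.7e-06). In Empty the call was lost when any 1 of the 4 Empty libraries was left out, with log2 values of 0.46 to 0.55 and edgeR adjusted p-values of up to 0.372 over the alternatives. The authors' deposited tables give ATF4 a log2 fold change of 0.54 (adjusted p-value 0.0129) in Empty and 1.33 (adjusted p-value 9.97e-07) in NeuT. None of its exonic bases is shared with another gene, and of its 4 pseudogenes ATF4P3 had at most 0.574% of the ATF4 count in any library.

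DDIT3 (ENSG00000175197, chromosome 12, 57516588 to 57521737, minus strand) encodes CHOP, a C/EBP-like factor linked to stress-induced cell death. It had 102 and 102 counts in the untreated Empty libraries, 176 and 259 in the treated ones, 127 and 117 in untreated NeuT and 614 and 855 in treated NeuT. In CPM this was 1.80 and 1.79, then 4.62 and 4.42, in Empty, and 2.32 and 2.17, then 11.4 and 15.8, in NeuT. The treated NeuT libraries were the highest and the untreated libraries of both lines the lowest, with no overlap. The rise was 2.51-fold in Empty (log2 1.33, SE 0.18, edgeR adjusted p-value 0.00156) and 6.05-fold in NeuT (log2 2.60, SE 0.16, edgeR adjusted p-value 1.6e-07). Counted from the largest rise, DDIT3 ranked 10 in Empty and 9 in NeuT among the 13143 genes whose mean count was 50 or more. Without treated Empty replicate 1, the shallowest library, the Empty value was 1.30 and was not called (edgeR adjusted p-value 0.0526).

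The level of DDIT3 relative to ATF4 differed between groups. Its RPKM was 1.39 and 1.45% of that of ATF4 in untreated Empty and 2.50 and 2.54% in treated Empty. In NeuT it was 4.07 and 3.77% without the drug and 8.79 and 9.80% with it. The 4 groups did not overlap in this ratio, and within each line it was higher with JG-98. Of the exonic bases of DDIT3, 39.6% are shared with other genes, including 355 with MARS1, the methionyl-tRNA synthetase gene on the opposite strand. Whether reads were counted by strand is not given in the sources used here, and MARS1 had 6505 to 11213 counts per library. DDIT3 may therefore have gained counts from MARS1 reads or lost counts of its own in the shared bases. MARS1 itself changed by a log2 value of 0.30 in Empty (not called, edgeR adjusted p-value 0.167) and rose by 0.54 in NeuT (edgeR adjusted p-value 0.00128), less than DDIT3 in both lines. The part of the shared bases in the DDIT3 values, as counts gained or lost, was not tested.

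**Figure D3:**
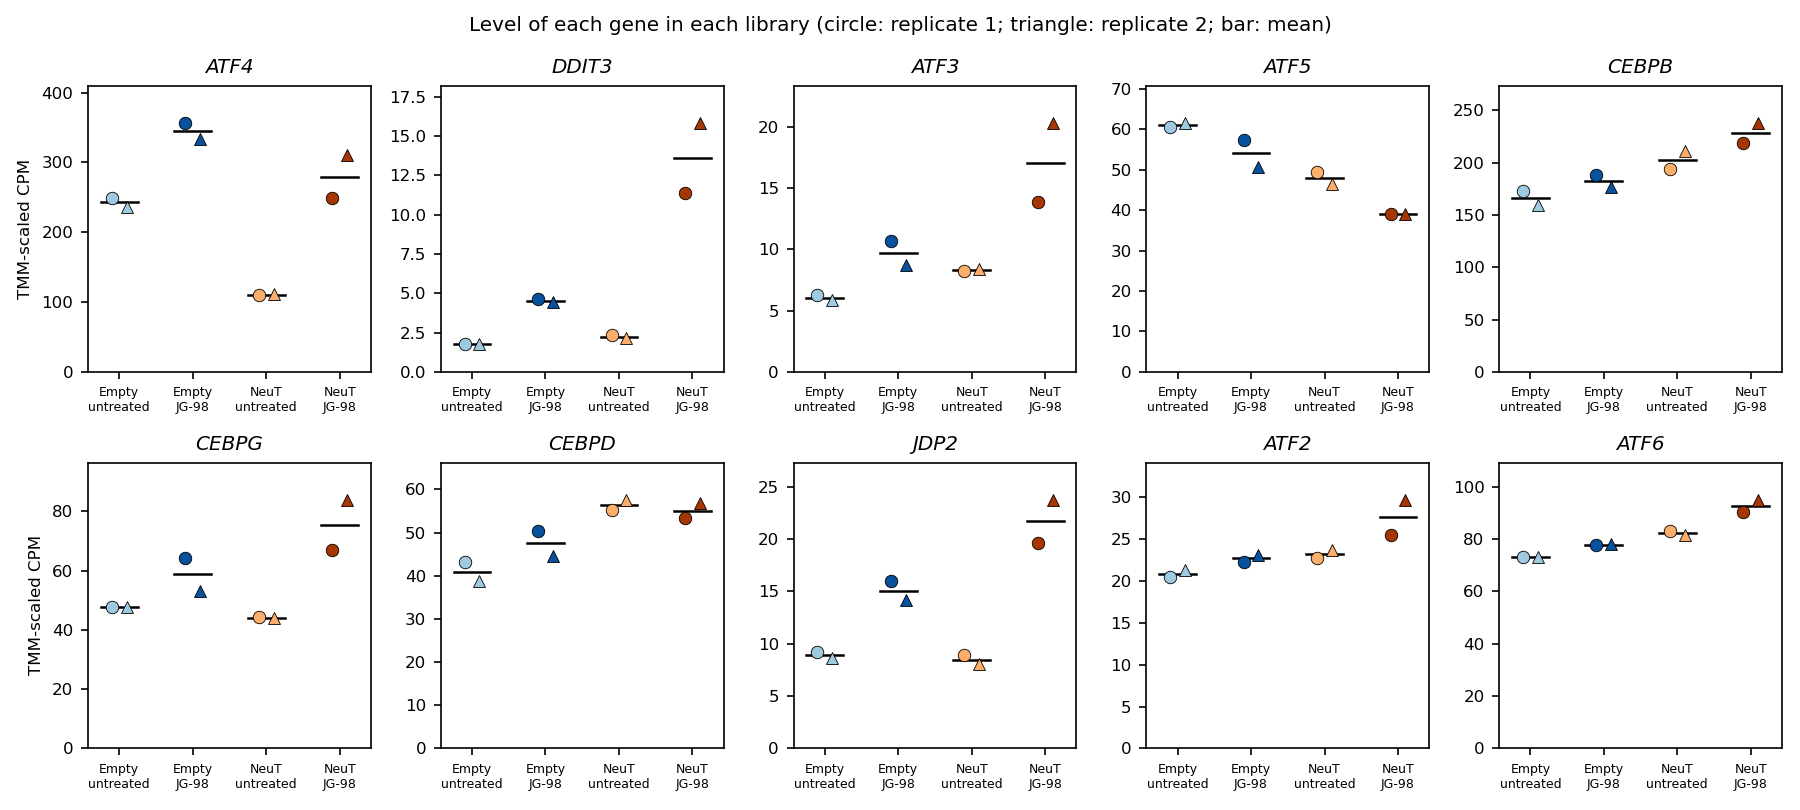
Level of each of the 10 genes in each of the 8 libraries, in TMM-scaled CPM, with 1 panel per gene. Points are single libraries, and in treated NeuT the replicates of DDIT3 (11.4 and 15.8) and ATF3 (13.9 and 20.3) lie further apart than in the other groups.

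ATF3 (ENSG00000162772, chromosome 1, 212565334 to 212620777, plus strand) is an early stress-induced member that can repress its own and other targets. It was at 6.27 and 5.85 CPM in untreated Empty, 10.7 and 8.71 CPM in treated Empty, 8.21 and 8.39 CPM in untreated NeuT and 13.9 and 20.3 CPM in treated NeuT. Treated libraries lay above untreated ones in both lines. In NeuT it rose 2.06-fold (log2 1.04, SE 0.16, edgeR adjusted p-value 0.00205), a call lost without untreated NeuT replicate 1 (0.0506). The log2 value of 0.67 (SE 0.16) in Empty did not pass (edgeR adjusted p-value 0.144). It passed there with DESeq2 (0.0132), with only the 4 Empty libraries (0.0094), without the filter on low counts and without either treated NeuT library, and over the alternatives the adjusted p-value ran from 1.4e-05 to 0.727.

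JDP2 (ENSG00000140044, chromosome 14, 75427716 to 75474111, plus strand), a repressor that pairs with Jun and ATF proteins, rose in both lines. It was at 9.21 and 8.62 CPM in untreated Empty and 16.0 and 14.1 CPM in treated Empty, and at 8.92 and 8.04 CPM and 19.6 and 23.8 CPM in NeuT. The untreated libraries of the lines overlapped and the treated ones did not. The rise was 1.69-fold in Empty (log2 0.75, SE 0.11, edgeR adjusted p-value 0.00694) and 2.56-fold in NeuT (log2 1.36, SE 0.11, edgeR adjusted p-value 3.0e-06). The Empty call was lost without either untreated Empty library or treated Empty replicate 1, with edgeR adjusted p-values of up to 0.204.

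CEBPG (ENSG00000153879, chromosome 19, 33373685 to 33382686, plus strand) encodes C/EBPγ, a dimer partner of ATF4. It was at 47.6 and 47.8 CPM in untreated Empty, 64.2 and 53.2 CPM in treated Empty, 44.5 and 43.8 CPM in untreated NeuT and 67.0 and 83.9 CPM in treated NeuT. It rose 1.71-fold in NeuT (log2 0.77, SE 0.10, edgeR adjusted p-value 0.00118). In Empty its log2 value of 0.30 (SE 0.10) was not called (edgeR adjusted p-value 0.322), although the treated libraries were both higher, and it passed without the filter (0.00764). With 1 library left out the Empty value ran from 0.16 to 0.43.

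ATF5 (ENSG00000169136, chromosome 19, 49928702 to 49933935, plus strand), like ATF4 a factor translated under eIF2α phosphorylation, was the 1 member whose mRNA fell. It was at 49.4 and 46.4 CPM in untreated NeuT and 39.0 and 39.0 CPM in treated NeuT, 18.5% lower (log2 -0.30, SE 0.070, edgeR adjusted p-value 0.0288). In Empty it was at 60.6 and 61.5 CPM without and 57.3 and 50.7 CPM with the drug, a log2 value of -0.18 (SE 0.069) that did not pass (edgeR adjusted p-value 0.369). The treated libraries were lower than the untreated ones in both lines. The NeuT call was lost in 5 of 17 alternatives, namely with only the 4 NeuT libraries and without any 1 of the 4 untreated libraries, and the adjusted p-value reached 0.301. ATF5 shares 22.1% of its exonic bases, 564 of them with NUP62, a nuclear pore gene on the opposite strand with 5449 to 9033 counts per library. NUP62 had a log2 value of -0.15 in Empty (not called, edgeR adjusted p-value 0.331) and fell by 0.26 on the log2 scale in NeuT (edgeR adjusted p-value 0.0185), close to the values of ATF5. The part of the shared bases in the ATF5 values, as counts gained or lost, was not tested.

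CEBPB (chromosome 20, 50190734 to 50192689, plus strand), which encodes C/EBPβ, had a log2 value of 0.13 (SE 0.064) in Empty and one of 0.17 (SE 0.064) in NeuT. Neither passed (edgeR adjusted p-values 0.523 and 0.190), and its libraries ran from 159.4 to 187.8 CPM in Empty and from 194.0 to 237.6 CPM in NeuT. CEBPD, which encodes C/EBPδ, a factor of inflammatory responses, had 0.21 (SE 0.076) and -0.04 (SE 0.075), and in NeuT its treated and untreated libraries overlapped. ATF2, a constitutive partner of Jun activated by phosphorylation, had 0.12 (SE 0.086) and 0.25 (SE 0.085). ATF6, the membrane-bound sensor of the endoplasmic reticulum (ER), had 0.09 (SE 0.057) and 0.17 (SE 0.057). For CEBPD, ATF2 and ATF6 the edgeR adjusted p-values were 0.139 or more in both lines. Leaving out treated NeuT replicate 1 brought CEBPB, ATF2 and ATF6 past the threshold in NeuT, at log2 values of 0.23, 0.35 and 0.20.

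The replicates of treated NeuT differed in these genes. Replicate 2 was above replicate 1 by a log2 difference of 0.55 for ATF3, 0.48 for DDIT3, 0.32 for ATF4, 0.32 for CEBPG and 0.27 for JDP2, against a median absolute difference of 0.156 over all genes. In treated Empty the same 5 genes were lower in replicate 2, by 0.06 to 0.30. ATF2 was also higher in replicate 2 of treated NeuT, by 0.22, while ATF5 was level (-0.00). The size of the changes in NeuT moved with the library used. Without treated NeuT replicate 1 the log2 fold changes in NeuT were 1.49 for ATF4, 2.81 for DDIT3 and 1.29 for ATF3, and without replicate 2 they were 1.16, 2.33 and 0.73. DDIT3 and ATF4 were called in all 17 alternatives in NeuT, as were CEBPG and JDP2.

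Whether JG-98 acted more in one line was tested as the interaction of line and drug, the change in NeuT minus the change in Empty. None of the 10 genes was called by edgeR, against 1 of 17693 genes (0.00565%), while 5 (ATF4, DDIT3, CEBPG, CEBPD and JDP2) had an unadjusted p-value under 0.05, as did 7.79% of all genes. ATF4 was closest, with a log2 difference of 0.83 (SE 0.12) at an adjusted p-value of 0.0579. It was 1.27 (SE 0.24) for DDIT3, 0.60 (SE 0.16) for JDP2, 0.48 (SE 0.14) for CEBPG, 0.37 (SE 0.23) for ATF3 and -0.25 (SE 0.11) for CEBPD, with adjusted p-values of 0.152 to 0.719. With 1 library left out it ran from 0.65 to 0.98 for ATF4, 0.99 to 1.48 for DDIT3 and 0.45 to 0.73 for JDP2. It ran from 0.29 to 0.62 for CEBPG, 0.06 to 0.62 for ATF3 and -0.33 to -0.16 for CEBPD. The outcome depended on the method. DESeq2 called 2 of the genes, ATF4 (3.8e-08) and DDIT3 (0.0154), edgeR without robust estimation called ATF4 (0.0264), edgeR on total counts called ATF4 (0.0138), and without the filter on low counts ATF4, DDIT3, CEBPG and JDP2 were called. Without treated NeuT replicate 1 the count was 5 (ATF4, DDIT3, ATF3, CEBPG and JDP2), and without treated NeuT replicate 2 it was 1 (ATF4).

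The lines were then compared at equal treatment. Without the drug, ATF4 and ATF5 were lower in NeuT than in Empty, by 54.5% (log2 -1.14, SE 0.083, edgeR adjusted p-value 9.4e-08) and 21.6% (log2 -0.35, SE 0.069, edgeR adjusted p-value 0.000567). CEBPD (log2 0.46, SE 0.075), ATF3 (0.45, SE 0.16), CEBPB (0.29, SE 0.064) and ATF6 (0.17, SE 0.057) were higher, with edgeR adjusted p-values of up to 0.0395. These 6 calls stand beside a background of 42% of all genes, 21.2% higher and 20.8% lower. DDIT3 (0.33), ATF2 (0.15), CEBPG (-0.11) and JDP2 (-0.07) were not called, although the libraries of the lines separated for 9 of the 10 genes, JDP2 excepted, as they did for 73.2% of all genes. Scaling to total counts moved the median of all genes by -0.07 in this comparison and the share of calls that were higher from 50.5% to 40.7%, and it ended the calls of ATF3 and ATF6. Both calls were also lost without any 1 of the 4 untreated libraries (edgeR adjusted p-values of up to 0.181 and 0.123), and that of ATF3 with limma-voom (0.0727). Without untreated Empty replicate 2 CEBPB was lost as well (0.0517), which left 3 of the 10.

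Under JG-98 all 10 genes were called between the lines, 8 as higher and 2 as lower in NeuT, beside 41.7% of all genes, 21.7% higher and 20% lower, and the libraries of all 10 separated, beside 67.6% of all genes. DDIT3 was 3.01-fold higher (log2 1.59, SE 0.15, edgeR adjusted p-value 2.4e-07), from 4.52 ± 0.14 to 13.6 ± 3.2 CPM (SD, n = 2 each), and ATF3 1.77-fold higher (log2 0.83, SE 0.15, edgeR adjusted p-value 0.000644). JDP2 (0.53), CEBPG (0.37), CEBPB (0.32), ATF2 (0.28), ATF6 (0.25) and CEBPD (0.22) followed. ATF4 remained 19.0% lower (log2 -0.30, SE 0.082, edgeR adjusted p-value 0.00828) and ATF5 27.6% lower (log2 -0.47, SE 0.071). With 1 library left out the log2 value ran from -0.47 to -0.14 for ATF4 and from -0.55 to -0.38 for ATF5. On total counts the median of all genes moved by -0.075, the share of higher calls went from 52.0% to 41.0%, and ATF2 and CEBPD were not called. Leaving out 1 treated library left 7 to 10 of the 10. ATF4 (log2 -0.26) and ATF2 were lost without treated Empty replicate 1 (edgeR adjusted p-value 0.0845 for both), CEBPG and CEBPD without treated Empty replicate 2 (0.118 and 0.287), and CEBPG, CEBPD and ATF2 without treated NeuT replicate 2 (0.0658, 0.0991 and 0.159). CEBPD was also lost with only the 4 treated libraries (0.0734). The change with JG-98 in NeuT and the difference between untreated lines share the untreated NeuT libraries, so the low start of ATF4 in NeuT and its larger log2 fold change there are not separate observations.

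**Figure D4:**
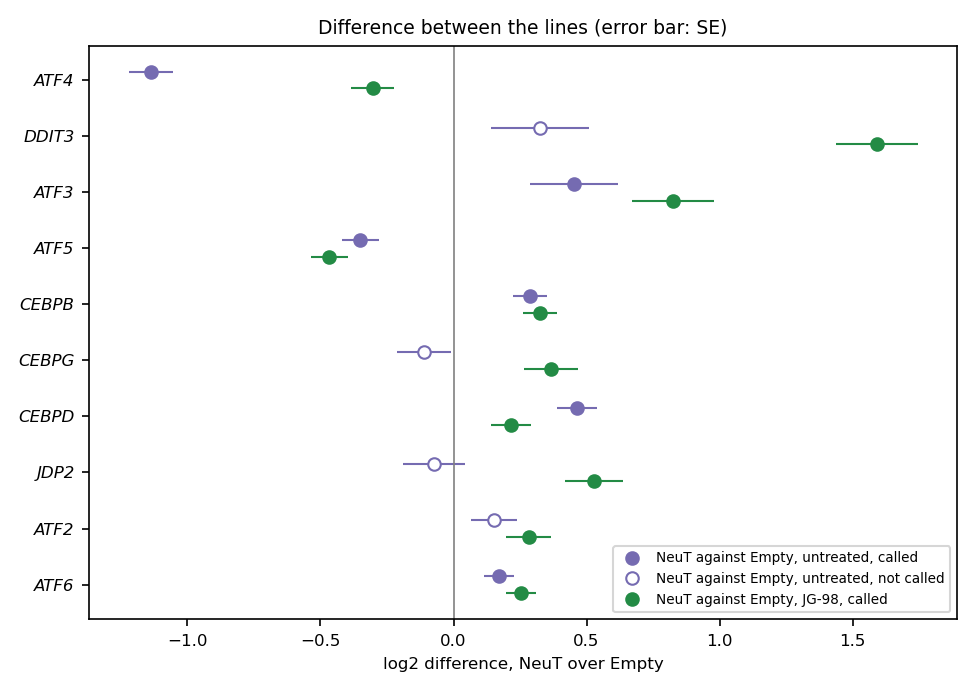
Difference of NeuT from Empty for the 10 genes without and with JG-98, as log2 difference from edgeR with its standard error. Filled points are called at an adjusted p-value under 0.05, ATF4 and ATF5 lie below 0 in both comparisons, and DDIT3 goes from 0.33 without to 1.59 with the drug.

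Genes known as targets of ATF4 were described from a list of 38, of which CBS had too few counts and 37 were tested. In Empty 12 of the 37 rose and none fell, with a median log2 fold change of 0.37, and in NeuT 33 rose and none fell, with a median of 0.66, while the median of all tested genes was -0.00 and 0.00. By sign, 37 of 37 were above 0 in Empty and 36 of 37 in NeuT. Of all tested genes, 0.26% were called as higher and 0.0791% as lower in Empty, and 2.01% and 1.01% in NeuT. The list covered amino acid synthesis and transport, tRNA synthetases and secreted stress signals. The 4 that did not pass in NeuT, named after their values were seen, were FGF21 (2.58, at a mean of 6 counts per library), DDIT4 (0.03), VEGFA (0.02) and SESN3 (-0.05). None of the 37 passed the interaction in edgeR, where their median was 0.34 against 0.00 for all genes. The Empty count of 12 was 3 without treated Empty replicate 1, 7 without treated Empty replicate 2, 4 without either untreated Empty library, and 31 and 30 without treated NeuT replicates 1 and 2. It was 22 of 33 with DESeq2, 24 of 38 without the filter and 27 of 36 with only the 4 Empty libraries. The NeuT count of 33 was 27 of 36 with only the 4 NeuT libraries and 31 of 37 with the replicate number as a block. With 1 NeuT library left out the NeuT median ran from 0.60 to 0.78.

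Of the ATF4 targets with the largest changes, ADM2, a secreted peptide of the adrenomedullin family, went from 0.237 ± 0.061 to 2.22 ± 0.39 CPM in Empty and from 0.387 ± 0.0042 to 6.55 ± 2.2 CPM in NeuT (SD, n = 2 each). Its log2 fold changes of 3.20 (SE 0.33) and 4.07 (SE 0.29) were both called by edgeR (adjusted p-values 1.0e-04 and 8.0e-07). CHAC1, which degrades glutathione, went from 2.34 ± 0.027 to 39.9 ± 17 CPM in NeuT (SD, n = 2 each) and rose by a log2 value of 4.09 (SE 0.42, edgeR adjusted p-value 0.0175). In Empty it was at 1.72 ± 0.45 and 11.9 ± 2.8 CPM (SD, n = 2 each), and its 2.77 (SE 0.45) was not called (edgeR adjusted p-value 0.175). SLC7A11, the cystine transporter subunit xCT, rose by 2.60 (SE 0.21) in NeuT to 79.2 ± 22 CPM (SD, n = 2), and its 1.23 (SE 0.22) in Empty was not called. NUPR1, a small stress-induced nuclear protein, rose by 1.17 (SE 0.15) in Empty and, with the same error, by 2.62 in NeuT.

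The CHOP target list had 12 genes, of which CA6 had too few counts. Over all tested genes 0.26% were called as higher in Empty and 2.01% in NeuT, with medians of -0.00 and 0.00. In Empty 2 of 11 rose (TRIB3 and NUPR1, median of the list 0.21) and in NeuT 4 rose (CHAC1, NUPR1, TRIB3 and WARS1, median 0.31). All 4 are on the ATF4 list as well, and none of the 7 genes on the CHOP list alone was called in either line taken by itself. Averaged over both lines 5 of the 11 rose, against 2.39% of all genes, the fifth being PPP1R15A, which is on the CHOP list alone. TRIB3, a pseudokinase that feeds back on ATF4 and CHOP, rose by a log2 value of 0.96 in Empty and 1.30 in NeuT (SE 0.13 each), and in treated NeuT it reached 178.3 ± 37 CPM (SD, n = 2). WARS1, the tryptophanyl-tRNA synthetase, rose by 0.47 (SE 0.066) in NeuT. PPP1R15A (GADD34), which helps to dephosphorylate eIF2α and was named after its values were seen, had log2 values of 0.75 in Empty and 1.05 in NeuT that did not pass (edgeR adjusted p-values 0.318 and 0.0645), and rose by 0.90 (SE 0.14) averaged over both lines (edgeR adjusted p-value 0.0325). The Empty count was 0 without either untreated Empty library or treated Empty replicate 1, 1 without treated Empty replicate 2 and with the replicate number as a block, 3 with DESeq2 and limma-voom, 4 without robust estimation and with only the 4 Empty libraries, and 5 without either treated NeuT library. In NeuT the count of 4 was 3 with the replicate number as a block, with only the 4 NeuT libraries and without untreated Empty replicate 1 or either untreated NeuT library. It was 5 without treated NeuT replicate 2 and with total counts, DESeq2, limma-voom and edgeR without robust estimation, and 8 higher and 1 lower without treated NeuT replicate 1.

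**Figure D5:**
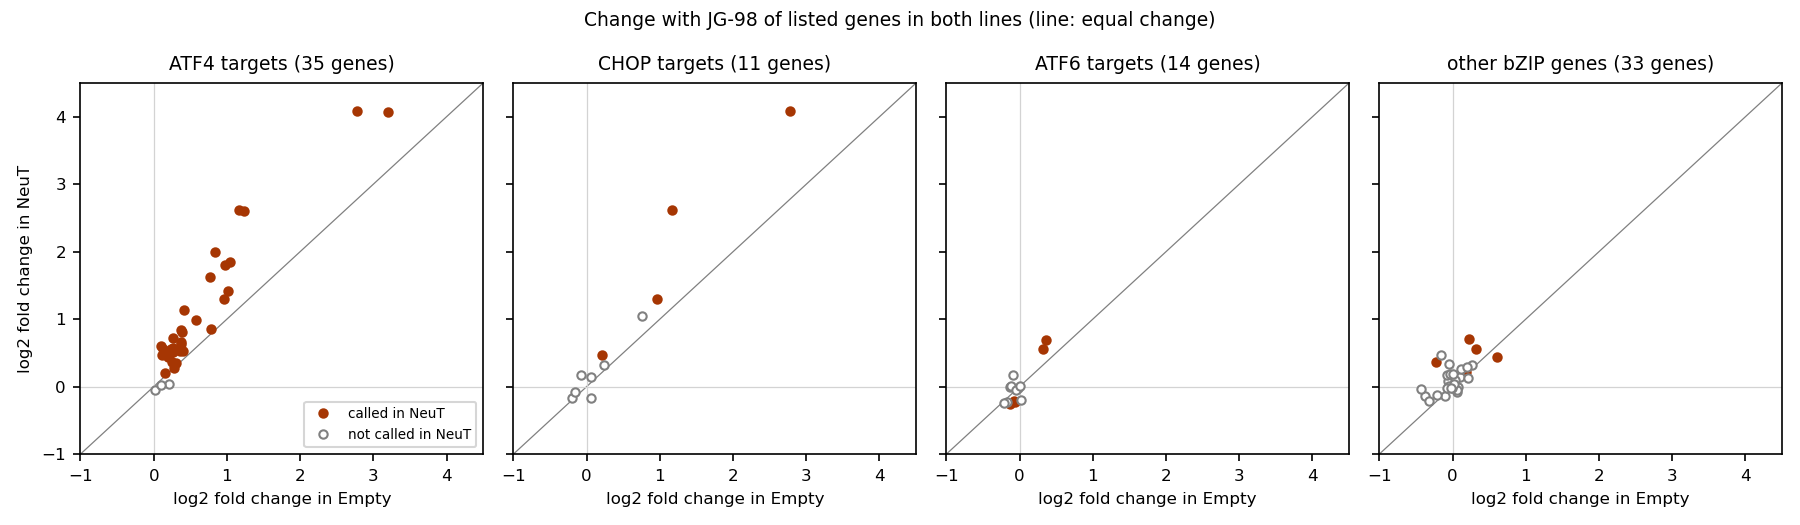
Change with JG-98 in Empty (horizontal) and NeuT (vertical) for the genes of 4 lists, as log2 fold change from edgeR, for genes whose mean count was 50 or more (35, 11, 14 and 33 genes). Filled points are called in NeuT, the diagonal marks equal change, and ATF4 targets lie mostly above the diagonal. Of the ATF6 targets, HERPUD1 (0.36 and 0.69) and XBP1 (0.32 and 0.56) lie highest, and the 3 called as lower in NeuT lie between -0.25 and -0.21 there.

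The ATF6 list held 14 genes, mostly chaperones and folding enzymes of the ER, with the degradation components HERPUD1, SEL1L and SYVN1 and the factor XBP1. In Empty none was called (median -0.07), while 2 were called as higher with DESeq2 and, in edgeR, without the filter on low counts, with only the 4 Empty libraries and without either treated NeuT library. Of all tested genes 0.339% were called in Empty, with a median of -0.00. In NeuT 2 of the 14 rose and 3 fell (median -0.04), against 2.01% of all genes called as higher and 1.01% as lower (median 0.00). The 2 that rose are not chaperones. HERPUD1, a component of ER-associated degradation, rose by a log2 value of 0.69 (SE 0.085) in NeuT, and XBP1, a bZIP factor of the ER stress response, by 0.56 (SE 0.075). The 3 that fell in NeuT were PDIA4, a disulfide isomerase (log2 -0.25, SE 0.052), CALR, a calcium-binding chaperone (-0.23, SE 0.051), and HSP90B1 (-0.21), the last named after its values were seen. HSPA5, the main ER chaperone, also named after its values were seen, had -0.01 in NeuT and was not called. The 3 falls were 1 without either untreated Empty library, 0 without either untreated NeuT library and with only the 4 NeuT libraries, 5 without the filter on low counts, and 6 without treated NeuT replicate 1 and with DESeq2.

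Of 44 other bZIP genes, 39 were tested. In Empty 1 rose, against 0.26% of all genes, namely MAFF, a small Maf protein (log2 0.60, SE 0.10, edgeR adjusted p-value 0.0136). This count was 0 without either untreated Empty library or treated Empty replicate 1, 2 with DESeq2, without the filter on low counts and with only the 4 Empty libraries, and 4 without either treated NeuT library. In NeuT 5 of the 39 rose and none fell, against 2.01% of all genes called as higher and 1.01% as lower. The 5 were CREBRF, a regulator of CREB3 (0.71, SE 0.16), XBP1 (0.56, SE 0.075), MAFF (0.44, SE 0.096), BACH1, a heme-sensing repressor (0.36, SE 0.088), and JUNB (0.22, SE 0.058), the last named after its values were seen. BACH1 had a log2 value of -0.23 in Empty that was not called. The median of the list was -0.00 in Empty and 0.10 in NeuT, against -0.00 and 0.00 for all genes. The NeuT count was 1 without either untreated NeuT library, without treated NeuT replicate 2 and with only the 4 NeuT libraries, 3 without any 1 of the Empty libraries, 8 without the filter on low counts and 11 without treated NeuT replicate 1. None of the 39 passed the interaction in edgeR.

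Profiles over the 8 libraries were compared by the Pearson r of log2 CPM among 13106 genes outside the set, as a description. The 8 points share their lines and treatment groups. The genes most like ATF4 were the tRNA synthetases YARS1 (r = 0.993) and TARS1 (0.991), the translation factor EIF5 (0.993), the calcium channel subunit CACNB1 (0.991) and the pseudogene ATF4P3 (0.988), whose reads cannot be kept fully apart from those of ATF4. Those most like DDIT3 were SLC7A11 (0.995), the zinc finger gene ZNF350 (0.987), MIA2 (0.986), FIBIN (0.985) and the secreted glycoprotein STC2 (0.984). YARS1 followed ATF4 in being lowest in untreated NeuT, at 130.2 CPM against 185.1, 223.1 and 193.2 CPM in untreated Empty, treated Empty and treated NeuT. SLC7A11 was at 12.1 and 13.0 CPM in untreated Empty and NeuT and at 28.3 and 79.2 CPM in the treated cells, beside 1.79, 2.25, 4.52 and 13.6 CPM for DDIT3. Among the kinases that phosphorylate eIF2α, EIF2AK1 (HRI), EIF2AK2, EIF2AK3 and EIF2AK4 had log2 fold changes between -0.11 and 0.16 with JG-98, and none was called in either line.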

How the data were processed

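For the 8 libraries of poly(A)-selected RNA the authors deposited raw gene counts in 1 table and 1 table per line of their own comparison, with log2 fold changes, p-values and a test score, per the file headers. Per the submitters' processing notes, the tools were Trim Galore 0.5.0, FastQC 0.11.7, HISAT2 2.1.0, SAMtools 1.9, featureCounts 1.6.3 and limma, on GRCh38. The annotation release and strand setting are not given in the sources used here.

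The deposited counts went unchanged into edgeR 4.0.16 under R 4.3.3 (filterByExpr, minimum count 10 and total 15; TMM; robust quasi-likelihood fit, 1 coefficient per group, all 8 libraries, 4 residual degrees of freedom). P-values were two-sided and adjusted by Benjamini-Hochberg over 17693 genes, and a gene was called under 0.05. Standard errors are the log2 fold change divided by the square root of F. An exact permutation test of 2 against 2 cannot go below 0.333. Alternatives were RLE and total-count scaling, no filter, DESeq2 1.42.0, limma-voom 3.58.1, a minimum of 10 counts throughout, no robust estimation, the replicate number as a block, only the 4 libraries compared, and leaving out each library.

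A count of 0 allows up to 3 counts, 0.0803 CPM in the shallowest library, and covers counting error only. Every library column was matched to a sample, with 0 left over. Gene symbols matched 60261 of 60617 identifiers. The genes and lists were chosen with earlier results of these data known. Apart from the 10 genes, those named were the 4 largest changes with JG-98 in NeuT among called genes of each list with a mean count of 50 or more, the 5 genes most correlated with ATF4 and with DDIT3, and the 4 eIF2α kinases. Other genes named are marked as such, describe what a list holds, or share sequence with a member. The scripts were tested on simulated data.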

Additional observations from a re-analysis of the deposited data

How the results depend on the processing

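Over the alternatives, the members called as higher or lower with JG-98 kept their direction in both lines. The values that changed sign were all of genes not called and came from leaving out 1 library. When 1 library was left out, CEBPD in NeuT (-0.04 in the reported fit) lay between -0.0908 and 0.0075, JDP2 between untreated lines (-0.07) between -0.1376 and 0.0173, and the interaction of CEBPB (0.04) between -0.037 and 0.0965, with further negative values of -0.0236, -0.0046 and -0.032. Members called in Empty numbered 5 without the filter on low counts and 0 to 5 when 1 library was left out. In the other comparisons leaving out 1 library gave 4 to 9 members in NeuT, 5 to 9 averaged over lines, 0 to 5 for the interaction, 3 to 6 between untreated lines and 7 to 10 between treated lines. The interaction gave 1 member on total counts, 4 without the filter, 2 with DESeq2, 0 with limma-voom and 1 without robust estimation.

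Counts over all genes stayed within 5461 to 8690 between untreated lines (7423 in the reported fit) and within 5951 to 7571 between treated lines (7380). In Empty they were 60 in the reported fit, 282 without the filter, 151 with DESeq2, 205 with only the 4 libraries compared and 9 to 417 when 1 library was left out. In NeuT they were 533, 1000 without the filter, 185 with only the 4 libraries and 132 to 2133 when 1 was left out. Averaged over lines they were 702, 1142 without the filter and 259 to 1934 when 1 was left out. For the interaction they were 1, 2 on total counts, 138 without the filter, 26 with DESeq2, 3 without robust estimation and 1 to 777 when 1 was left out. In Empty, in NeuT, averaged over lines and for the interaction, the upper ends of the ranges came without treated NeuT replicate 1. Between untreated lines the highest count, 8690, came with only the 4 libraries compared. Between treated lines the highest, 7571, came on total counts. The causes were not tested.

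With the replicate number as a block, the member counts were 3 in Empty, 6 in NeuT, 6 averaged, 0 for the interaction, 6 between untreated and 10 between treated lines, and 66, 593, 780, 1, 7497 and 7451 genes were called. No member count changed with the block, while called CHOP targets went from 2 to 1 in Empty and from 4 to 3 in NeuT. Same-numbered libraries deviated together with r from -0.10 to 0.244, so the numbers were not taken as a pairing. With the numbers crossed in treated NeuT, an alternative chosen after seeing the data, 6 members and 454 genes were called in NeuT. The lowest member count was 102, for DDIT3 in each untreated Empty library, and what size of change this depth can show was not tested.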
